A study of Cricetulus griseus with 6 samples.

Results

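The genes described encode 9 enzymes of serine synthesis, serine-to-glycine conversion and folate one-carbon metabolism, and asparagine synthetase: Phgdh, Psat1, Psph, Shmt1, Shmt2, Mthfd2, Mthfd1l, Aldh1l2, Mthfd1 and Asns. Each was found by its symbol in the array annotation, and each had 1 probe set that carried its symbol alone, so 10 of 29700 probe sets and 10 of 14899 named genes are considered. They were measured in CHO-K1, a hamster ovary cell line that is a common protein production host and cannot make ornithine from arginine for lack of arginase activity. All cultures were CHO-K1 in suspension, with no genetic change named, in the serum-free medium that the labels call SFM-F10. The medium held no other polyamine and no ornithine. The cultures called NoPUT in the labels had no putrescine, and the controls, called +PUT, had 1 mg/l putrescine. Both were sampled on day 3, with 3 flasks per group, seeded at 200000 cells/ml in 50 ml. The flasks are called biological replicates, but all come from 1 cell line, so the p-values measure the spread between flasks of that line.

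De novo serine synthesis branches from glycolysis and ends in serine, whose conversion to glycine loads a carbon unit onto tetrahydrofolate. That carbon unit can be oxidised to formate in the mitochondria and taken up again by cytosolic folate enzymes, which feed purine and thymidylate synthesis. In human and mouse cells, Asns, the serine synthesis genes and several mitochondrial folate genes are known targets of the stress transcription factor ATF4. CHO-K1 is a proline-requiring line, and its folate enzymes are familiar because methotrexate, a folate antagonist, is used to select production clones.

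Without putrescine, genes of serine synthesis and mitochondrial folate metabolism fell, apart from Psat1 and Aldh1l2, as did Asns, while the cytosolic folate enzyme genes Shmt1 and Mthfd1 rose. Of the 10 genes, 6 fell (Asns, Mthfd1l, Shmt2, Mthfd2, Phgdh and Psph), 2 rose (Mthfd1 and Shmt1) and 2 did not pass the test (Psat1 and Aldh1l2). The test was limma with Benjamini-Hochberg adjustment over all probe sets at a threshold of 0.05. Over the whole array 11.2% of probe sets were called lower and 13.2% higher. Among the 6120 probe sets at least as bright as Shmt1, the dimmest of these genes apart from Aldh1l2, 20.6% were called lower and 26.6% higher. The share that rose, 20% of the 10 genes, was thus near the background, while the share that fell, 60%, was above it. The 10 genes were chosen with earlier results of these data known, so these shares describe them and test nothing. The groups did not overlap for 9 of the 10 genes, against 37.5% of all probe sets and 68.3% of those as bright. The median log2 difference of the 10 genes, without minus with putrescine, was -0.42, and that of all probe sets was 0.00667.

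The arrays of a group resembled each other, with Pearson r across probe sets of 0.9957 to 0.9962, against 0.9856 to 0.9878 between arrays of different groups. The values are on a log2 scale, and the fold changes given here assume that base. The labelling of a fixed RNA amount and the scaling of arrays make every value relative to the rest of the RNA, and fewer cells with a transcript cannot be told apart from less transcript per cell. The median level of markers of other tissues, used here as the level of a dim probe set, was 3.84. Of 6 ovarian markers 3 were measured, all above this level on average. As the level is a median, 5 of the 10 other-tissue markers that set it were also above it. Being above it is thus no sign of ovarian expression. The summed log2 values of the ovarian markers were 15.80 to 16.31 without and 15.47 to 16.27 with putrescine. Star, which moves cholesterol into mitochondria for steroid synthesis, was at 7.09 ± 0.21 without and 6.42 ± 0.06 with putrescine (SD, n = 3 each) and was called higher (limma adjusted p = 0.00277). The hormone receptor genes Amhr2 (4.75 without and 5.11 with putrescine) and Fshr (4.18 and 4.24) were not called. The summed log2 values of the 10 measured other-tissue markers were 39.19 to 40.12 without and 39.05 to 39.61 with putrescine, and 1 of the 10, Apoa2, was called higher. The 3 measured markers of fibroblast-like cells were bright, between 10.69 and 12.08 on average. Of these, 2 were called higher, and their summed values were 35.26 to 35.45 without and 34.08 to 34.23 with putrescine. The part of these marker changes in the results was not tested.

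**Figure D1:**
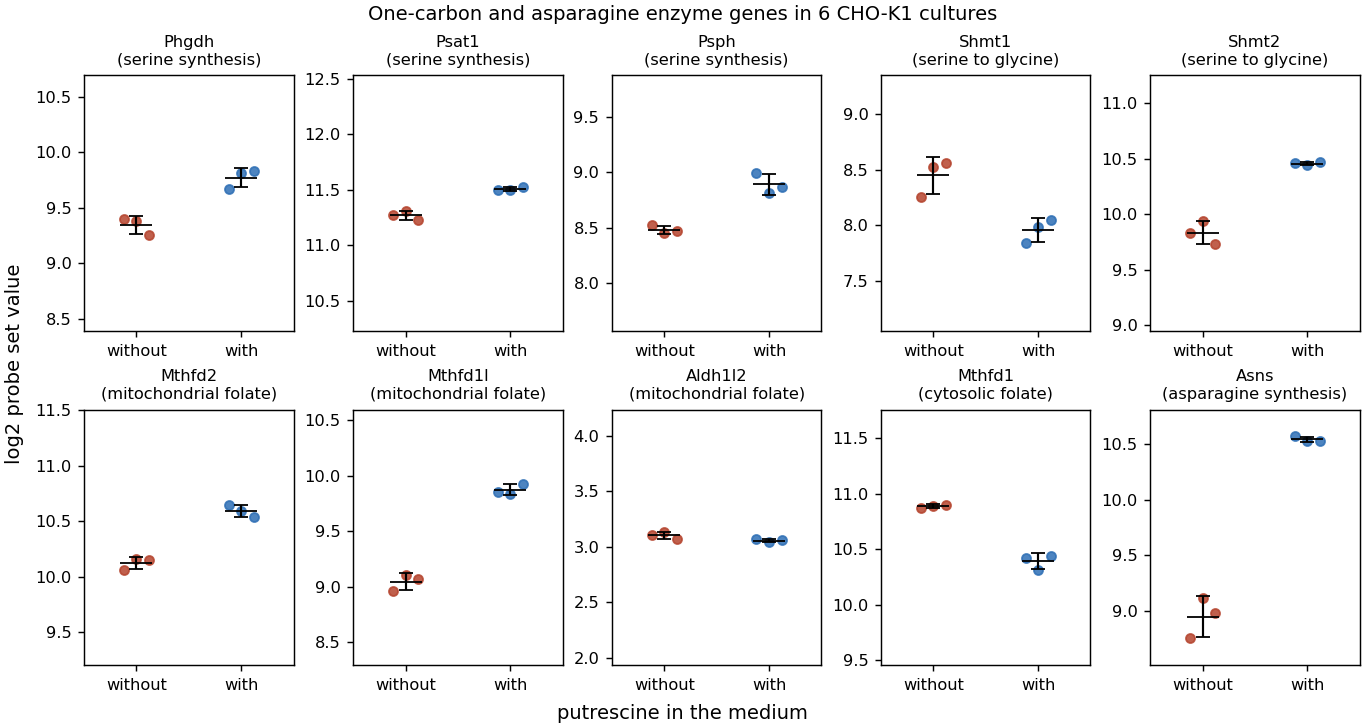
Log2 probe set value of each of the 10 genes in each array, with 3 cultures without putrescine on the left and 3 with putrescine on the right of each panel. Points are arrays, and bars are the mean ± SD. Every vertical axis spans the same range of log2 units but starts elsewhere. The groups are apart in every panel but that of Aldh1l2, and the cultures without putrescine are the higher ones for Shmt1 and Mthfd1.

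Serine synthesis runs through Phgdh, Psat1 and Psph in turn. Phgdh, which oxidises the glycolytic intermediate 3-phosphoglycerate in the committed step, had log2 values of 9.40, 9.38 and 9.25 without putrescine, against 9.67, 9.81 and 9.83 with it. All arrays without putrescine lay below all arrays with it, and the nearest arrays of the groups were 0.27 apart. Phgdh fell by 0.43 on the log2 scale (SE 0.09), to 74.4% of the level with putrescine (limma adjusted p = 0.00803).

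Psph, the phosphatase that releases free serine in the last step, had values of 8.52, 8.45 and 8.47 without putrescine, against 8.99, 8.81 and 8.87 with it. The groups were again apart, by 0.29, and the cultures without putrescine differed little among themselves (SD 0.04). The log2 difference of Psph was -0.41 (SE 0.08; limma adjusted p = 0.00775), nearly that of Phgdh.

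Psat1, the transaminase between them, which takes its amino group from glutamate, had values of 11.27, 11.31 and 11.23 without putrescine, against 11.50, 11.50 and 11.53 with it. The groups did not overlap, yet the difference was the smallest of the serine synthesis genes. At -0.24 on the log2 scale (95% interval before adjustment -0.42 to -0.06), Psat1 missed the threshold with limma adjusted p = 0.0543. This p ranged from 0.00195 to 0.14 over the alternatives, and 4 of the 12 put Psat1 past the threshold: quantile normalization, leaving out dim probe sets, averaging the probe sets of each gene, and a trended, robust variance prior, which follows the level. Its probe set was brighter than 98.9% of all probe sets.

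The serine hydroxymethyltransferases, which split serine into glycine and a folate-bound carbon unit, moved in opposite directions. Shmt2, the mitochondrial enzyme, had values of 9.83, 9.94 and 9.73 without putrescine, against 10.46, 10.44 and 10.47 with it. Shmt1, the cytosolic enzyme, had values of 8.26, 8.53 and 8.56 without putrescine, against 7.84, 7.99 and 8.05 with it. Neither gene's groups overlapped, and the gap was 0.50 for Shmt2 and 0.21 for Shmt1. Shmt2 was 1.54-fold lower (log2 difference -0.62, SE 0.09; limma adjusted p = 0.00104). Shmt1 was 1.40-fold higher (log2 difference 0.49, SE 0.11; limma adjusted p = 0.0107), with the wider spread among cultures without putrescine (SD 0.17) than with it (SD 0.11).

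Among the folate enzyme genes, Mthfd1l had the largest estimated fall. Mthfd1l, which releases formate from formyl-tetrahydrofolate in the mitochondria, had values of 8.96, 9.11 and 9.07 without putrescine, against 9.85, 9.84 and 9.93 with it. The groups were 0.73 apart, several times the SD of either group (0.08 without and 0.05 with putrescine). Its level was 1.77-fold lower (log2 difference -0.83, SE 0.08; limma adjusted p = 0.000228), and 691 of the 29700 probe sets had a larger fall. Its 95% interval, from -1.02 to -0.64, overlapped that of Shmt2, from -0.82 to -0.43.

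Mthfd2, the mitochondrial dehydrogenase and cyclohydrolase that acts between Shmt2 and Mthfd1l, had values of 10.06, 10.16 and 10.15 without putrescine, against 10.65, 10.59 and 10.54 with it. All arrays without putrescine were below all arrays with it, and both groups had the same SD of 0.06. The log2 difference was -0.47 (SE 0.08; limma adjusted p = 0.00322), a 1.39-fold lower level.

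Aldh1l2, which oxidises the mitochondrial formyl group to carbon dioxide, was dim in every array. Its values were 3.11, 3.13 and 3.07 without putrescine, against 3.07, 3.04 and 3.06 with it, all below the dim level of 3.84. The groups overlapped, and the log2 difference of 0.05 had a 95% interval from -0.13 to 0.22 (limma adjusted p = 0.736). At this signal the lack of a call does not show that Aldh1l2 was unchanged. The other 9 genes passed a filter on dim probe sets.

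Mthfd1, the cytosolic enzyme that takes formate up into the folate pool, had values of 10.87, 10.89 and 10.90 without putrescine, against 10.42, 10.31 and 10.44 with it. The groups were 0.43 apart, and the cultures without putrescine agreed within an SD of 0.02. Mthfd1 rose 1.41-fold (log2 difference 0.50, SE 0.08; limma adjusted p = 0.00232), close to the rise of Shmt1.

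Asns, which makes asparagine from aspartate with glutamine as nitrogen donor, showed the largest change of the 10 genes. Its values were 8.75, 9.11 and 8.98 without putrescine, against 10.57, 10.53 and 10.53 with it. The groups were 1.42 apart, although the cultures without putrescine spread more (SD 0.18) than those with it (SD 0.02). Asns was 3.02-fold lower (log2 difference -1.60, SE 0.10; limma adjusted p = 3.97e-05), at 33.1% of the level with putrescine. Of the 29700 probe sets, 67 had a larger fall, and Asns alone among the 10 genes changed by at least 2-fold.

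**Figure D2:**
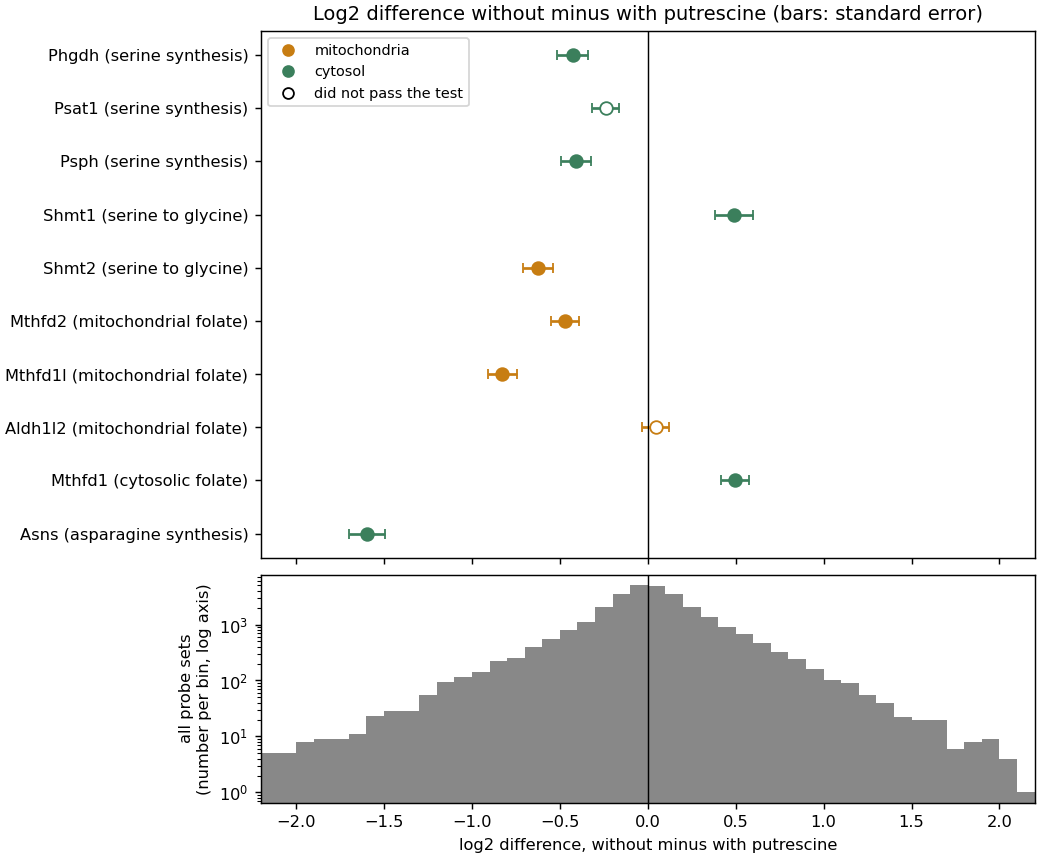
Log2 difference without minus with putrescine for each of the 10 genes (upper panel; points are estimates, bars are the standard error, colour gives the compartment of the enzyme) and the number of all probe sets by log2 difference in bins on a log axis (lower panel, shown from -2.2 to 2.2). Asns lies farthest from 0 at -1.60, and the cytosolic folate genes Shmt1 and Mthfd1 lie at 0.49 and 0.50, opposite to Shmt2 at -0.62 and Mthfd1l at -0.83.

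Mitochondrial and cytosolic counterparts were compared within each array, as the log2 value of the first gene minus that of the second. A shift of a whole array cancels in such a value. The absolute size of such a value has no meaning, since the genes have different probes, and it is its change between the groups that is compared. Shmt2 minus Shmt1 was 1.57, 1.41 and 1.17 without putrescine, against 2.62, 2.45 and 2.42 with it. Mthfd1l minus Mthfd1 was -1.91, -1.78 and -1.83 without putrescine, against -0.57, -0.47 and -0.51 with it. For both pairs every array without putrescine lay below every array with it, so the mitochondrial gene was lower relative to the cytosolic one in each culture without putrescine. The change was -1.11 for Shmt2 minus Shmt1 and -1.32 for Mthfd1l minus Mthfd1. A two-sided exact permutation test over the 6 arrays gave p = 0.1 for each, and 0.133 after adjustment over the 4 pairs compared. This p of 0.1 is the smallest that 3 against 3 arrays allow. For both pairs it was fixed in advance, since the groups of each gene were already apart, in opposite directions. It thus adds nothing to the results of the single genes.

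The remaining pairs moved less. Psat1 minus Phgdh averaged 1.93 ± 0.06 without and 1.74 ± 0.08 with putrescine (SD, n = 3 each). That change of 0.19 again separated the groups, with the same exact p of 0.1. Aldh1l2 minus Aldh1l1, whose genes are both dim, averaged -0.45 ± 0.21 without and -0.54 ± 0.10 with putrescine (SD, n = 3 each). The groups overlapped (exact permutation p = 0.5), and the sign of the difference turned to -0.01 without no-putrescine replicate 2. Mthfd2l, the counterpart of Mthfd2, was not analysed here.

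**Figure D3:**
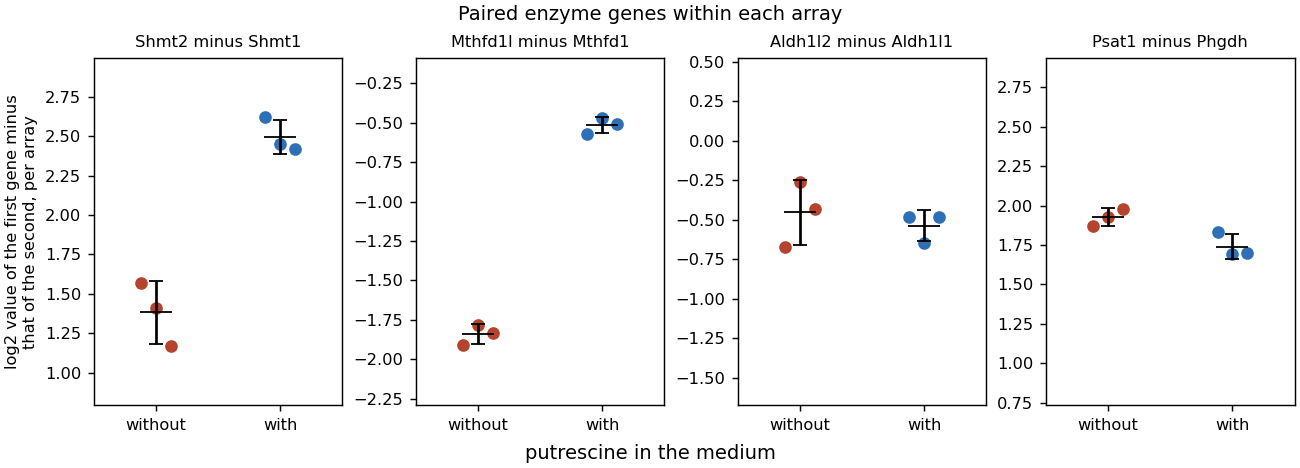
Log2 value of the first gene minus that of the second within each array, for 4 pairs of enzyme genes, with the cultures without putrescine on the left. Points are arrays, bars are the mean ± SD (n = 3), and every vertical axis spans the same range of log2 units. Shmt2 minus Shmt1 and Mthfd1l minus Mthfd1 are lower by more than 1 log2 unit without putrescine, and the groups of Aldh1l2 minus Aldh1l1 overlap.

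The surrounding pathway was read from 6 lists of genes that hold none of the 10. In some lists, genes that did not pass lay below the dim level, where the lack of a call does not show a gene unchanged. Over all 14899 named genes, 14.2% were called lower and 15.8% higher. For folate uptake and retention, 5 of 8 listed genes were measured: 1 rose, 2 fell and 2 did not pass, with a median log2 difference of -0.13. Ggh, the hydrolase that trims the glutamate tail which holds folates in the cell, had values of 7.64, 7.66 and 7.69 without putrescine, against 6.43, 6.49 and 6.58 with it. The groups were wide apart, and Ggh rose 2.24-fold (log2 difference 1.16, SE 0.08; limma adjusted p = 5.06e-05). Fpgs, the synthetase that adds this tail, went the other way, at 7.33 ± 0.05 without and 7.79 ± 0.08 with putrescine (SD, n = 3 each; limma adjusted p = 0.00411). Slc46a1, the proton-coupled folate transporter, was 1.76-fold lower (limma adjusted p = 0.00198). Slc19a1, the reduced folate carrier, was not called (log2 difference -0.13), and the folate receptor gene Folr1 was dim, at 3.59 without and 3.67 with putrescine.

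Among other folate-using enzymes, 10 of 12 were measured, of which 1 rose, 2 fell and 7 did not pass (median log2 difference -0.04). Tyms, thymidylate synthase, averaged 9.95 ± 0.04 without and 9.60 ± 0.06 with putrescine (SD, n = 3 each), a rise of 0.35 on the log2 scale (limma adjusted p = 0.0124). Mthfs, which returns formyl-folate stores to the active pool, fell by 0.47 (limma adjusted p = 0.0112), and the methionine synthase gene Mtr fell by 0.46. The purine synthesis enzymes that take folate carbon were not called: Atic had a log2 difference of 0.24 (adjusted p = 0.0776) and Gart of -0.14 (adjusted p = 0.274). For Mthfsd the difference was 0.35 (adjusted p = 0.0712). Without with-putrescine replicate 3 the number of these enzymes called higher was 2, with Mthfsd at adjusted p = 0.0311. That number was also 2 with the trended prior and 3 in the fits without dim probe sets or with probe sets averaged.

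Glycine cleavage and the breakdown of serine and glycine were represented by 10 of 16 listed genes, of which 1 rose, 0 fell and 9 did not pass (median log2 difference 0.06). The one that rose was Gcsh, the lipoylated carrier protein of the glycine cleavage system, with 10.52, 10.60 and 10.53 without putrescine against 10.09, 10.11 and 10.22 with it (limma adjusted p = 0.00659). Dld, which reoxidises this carrier, was not called (log2 difference 0.18; adjusted p = 0.222). The values of Agxt (0.22), Sdsl (0.11), Cth (-0.08) and Pipox (0.11) did not pass either. Cth averaged 3.72 without and 3.81 with putrescine, and Pipox 3.64 and 3.53, below the dim level of 3.84. At this signal the lack of a call does not show that Cth or Pipox was unchanged. Gldc and Amt, also of this list, were not analysed here, so glycine cleavage was covered only in part.

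Of the serine and glycine transporters 13 of 14 were measured, of which 6 fell, 2 rose and 5 did not pass (median log2 difference -0.23). Some of those that did not pass lay below the dim level. Slc6a9, the glycine transporter, had values of 7.36, 7.64 and 7.21 without putrescine, against 10.17, 10.16 and 10.16 with it, and its difference of -2.76 was greater than that of Asns. The neutral amino acid exchangers that carry serine followed, with Slc1a5 2.40-fold lower (limma adjusted p = 5.91e-05) and Slc1a4 2.30-fold lower (limma adjusted p = 0.000102). Slc38a2, a sodium-coupled transporter of small neutral amino acids, was at 10.19 ± 0.05 without and 11.05 ± 0.08 with putrescine (SD, n = 3 each), and its further probe set was lower by 1.02 on the log2 scale. The related Slc38a4 fell by 0.62, and by 0.69 in its further probe set. Slc6a5, also called lower, was near the dim level, at 3.56 without and 3.91 with putrescine. Leaving out with-putrescine replicate 1 or 2 or any no-putrescine replicate ended its call, at adjusted p = 0.0519 to 0.0878, where all arrays gave 0.0241.

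The transporter list also held 4 mitochondrial carriers, Sfxn1, Sfxn2, Sfxn3 and Slc25a38. Sfxn2, a sideroflexin of the inner mitochondrial membrane, rose 1.47-fold (limma adjusted p = 0.00203). Sfxn1, which carries serine into mitochondria in human cells, was called higher by 0.28 (limma adjusted p = 0.0446), but 7 of the 12 alternatives ended this call (adjusted p 0.00775 to 0.131 over all of them). These were quantile normalization, the replicate block and the fits that left out either of with-putrescine replicates 1 and 2 or any no-putrescine replicate. Sfxn3 (-0.05) and the mitochondrial glycine carrier gene Slc25a38 (-0.23) did not pass the test.

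In the list of asparagine, aspartate and glutamine enzymes, 9 of 12 were measured, of which 1 rose, 2 fell and 6 did not pass (median log2 difference 0.14). Gpt2, the mitochondrial alanine aminotransferase, had values of 6.84, 6.80 and 6.68 without putrescine, against 8.13, 8.18 and 8.41 with it. It was 2.76-fold lower, a change close in size to that of Asns, and its dimmer further probe set fell by 0.54. The glutaminase gene Gls2 was 1.89-fold lower (limma adjusted p = 0.000686). The gene that rose was Got1, the cytosolic aspartate aminotransferase, which averaged 10.58 ± 0.07 without and 9.98 ± 0.08 with putrescine (SD, n = 3 each). Its mitochondrial counterpart Got2 was not called (log2 difference 0.24; adjusted p = 0.0721). The asparaginase genes Aspg (-0.22) and Asrgl1 (0.16), which break asparagine down, were not called. The number of this list called higher was 2 in the fits without dim probe sets, with the trended prior or with probe sets averaged, in each of which Got2 passed.

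The list of regulators, which also holds genes induced downstream of ATF4, had 9 of its 11 genes measured. Of these, 5 fell, 1 rose and 3 did not pass (median log2 difference -0.41). The Atf4 transcript was not lower, with 12.13, 12.05 and 11.99 without putrescine against 11.87, 11.94 and 11.87 with it. Its log2 difference of 0.16 was not called (adjusted p = 0.206), and it passed as higher only with the trended robust variance prior (adjusted p = 0.0261), out of 12 alternatives. The arrays measured transcripts only, and ATF4 protein was not measured. The other listed genes that did not pass were Myc (log2 difference -0.41, limma adjusted p = 0.0505) and Eif2ak4 (-0.27, limma adjusted p = 0.0699). For both, all arrays without putrescine lay below all arrays with it. Ddit3 and Trib3, a transcription factor and a pseudokinase induced downstream of ATF4, were at -1.99 and -3.01 on the log2 scale, and the stress-responsive Nupr1 at -1.16. Nfe2l2, which encodes the factor NRF2 that acts on serine synthesis genes in human cells, was 1.56-fold lower (limma adjusted p = 0.00107). Atf5 was the one that rose (log2 difference 1.17). The kinase gene Eif2ak3, which signals to ATF4 from the endoplasmic reticulum, fell by 0.29 (limma adjusted p = 0.0315). The replicate block ended this call, as did leaving out with-putrescine replicate 1 or 3 or any no-putrescine replicate, and its adjusted p lay between 0.00595 and 0.097 under all settings tried.

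**Figure D4:**
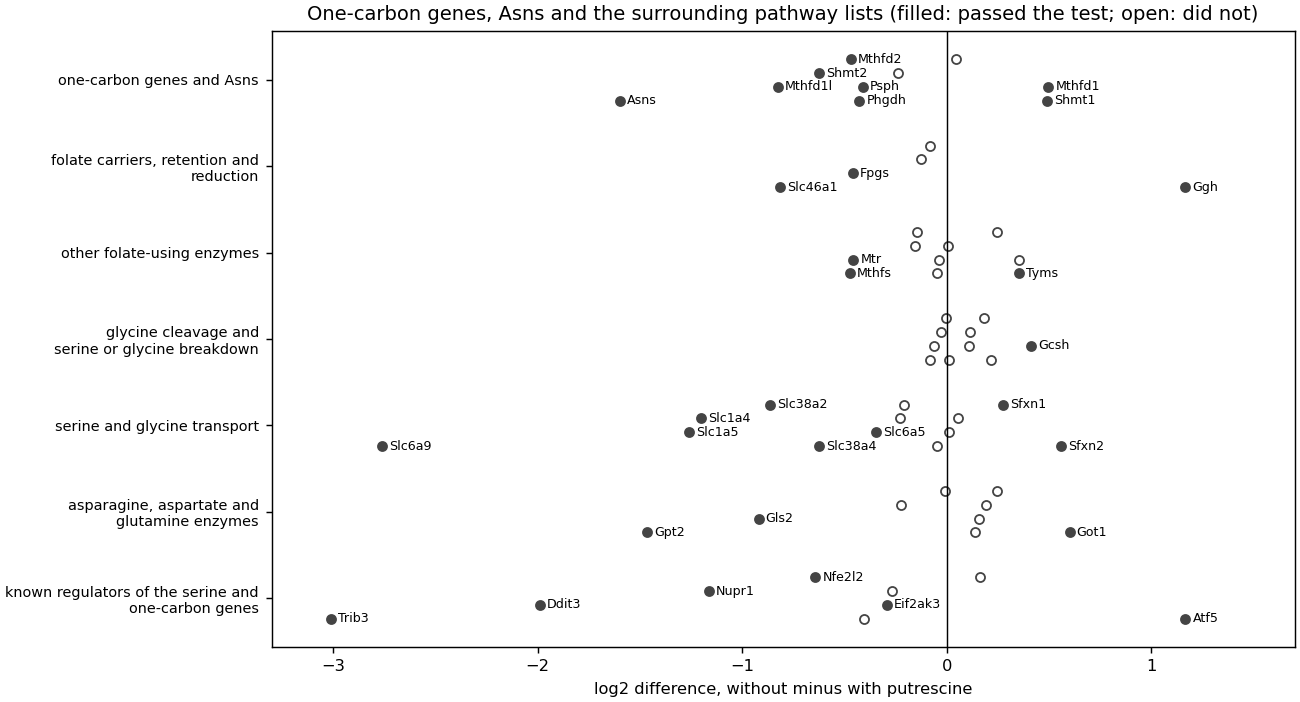
Log2 difference without minus with putrescine for the 10 genes (top row) and for the measured genes of 6 pathway lists (rows below). Each point is a gene by its brightest probe set, filled and named where it passed the test and open where it did not; the height within a row only keeps points apart. Ggh (1.16) stands opposite Fpgs (-0.46) and Slc46a1 (-0.81). Trib3 (-3.01), Slc6a9 (-2.76), Ddit3 (-1.99), Asns (-1.60) and Gpt2 (-1.47) lie far to the left.

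The profile over the 6 arrays most like the mean of the 10 genes, each centred on its own mean, belonged to Tti2, followed by Tmbim6, Mllt10, Dap3 and Osbpl9. Their Euclidean distances from it were between 0.0613 and 0.0719 log2 units, among 14889 other genes ranked over 6 arrays. All of these genes were lower without putrescine, by 0.34 to 0.40 on the log2 scale, around the mean difference of -0.36 of the 10 genes, which moved in opposite directions. Since 6 arrays in a pair of groups carry little more than the group difference, this likeness describes size and spread alone.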

How the data were processed

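RNA from 6 CHO-K1 cultures, 3 without and 3 with putrescine, was hybridised to 1 Affymetrix array each, from 300 ng of total RNA per the labels' protocols. The deposited log2 values were made by the authors with Transcriptome Analysis Console, per the submitters' processing notes; no version, setting, genome build or log base is stated there. They ran from 1.55 to 13.66, array medians were 4.92 to 4.98, and 1 value was missing, in no gene named here. Probe sets were named from the platform annotation: 16481 had 1 symbol, 793 several and 12426 none, and all 10 genes matched RefSeq (CriGri-PICRH-1.0) by Entrez identifier. Genes with several probe sets were counted by the brightest.

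The fit was limma 3.58.1 (R 4.3.3; lmFit, eBayes, group as the only term, prior degrees of freedom 4.58) over all 29700 probe sets, two-sided, with Benjamini-Hochberg adjustment at 0.05. It was tested on simulated data. No detection call was used, and 3 arrays per group limit the precision. The genes and lists were chosen with earlier results of these data known. Named are all 10 genes and up to 6 genes of each list with the smallest p. Further genes called against their list and the 5 most similar profiles are also named. Aldh1l1 was named through its pair with Aldh1l2. Outside this rule lie Slc6a5, Slc25a38, Sfxn3, Atf4, Myc, Eif2ak4 and the tissue markers Fshr, Star, Amhr2 and Apoa2. These were named after their values were seen. Alternatives were quantile normalization, median centring, a replicate block, a filter on dim probe sets, a trended robust prior, averaged probe sets, and each array left out. A planned search of promoter sequences was not run, since no sequences were used here.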

Additional observations from a re-analysis of the deposited data

How the results depend on the processing

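The counts of one-carbon genes and Asns called lower (6, or 7 where Psat1 passed) and higher (2) held under all 12 alternatives, and no difference of these genes changed direction. Of 119 gene values recomputed, 115 stayed on the same side of the threshold, and the 4 that did not were those of Psat1. Aldh1l2 could not be fitted without dim probe sets. With 1 array left out, Mthfd1l ranged from -0.86 to -0.78 and Shmt1 from 0.43 to 0.59 on the log2 scale. For 50 other named genes, Myc and Eif2ak4 aside, 595 values were recomputed. Of these, 18 lost their call (Sfxn1, Eif2ak3 and Slc6a5) and 10 gained one (Atic, Got2, Mthfsd and Atf4). A further 4 changed direction, all of genes that were not called. With 1 array left out these genes ranged from -0.083 to 0.017 (Sfxn3), from -0.148 to 0.047 (Aldh1l1) and from -0.138 to 0.077 (Fshr). The number of serine and glycine transporters called higher was 1 after quantile normalization and 1 with the replicate block, and 1 to 2 with 1 array left out. Folate-using enzymes called higher numbered 3 without dim probe sets, 2 with the trended prior, 3 with averaged probe sets and 1 to 2 with 1 array left out. Asparagine-list genes called higher numbered 2 under the same settings other than leaving out arrays, and regulators called higher 2 with the trended prior. Genes of the regulator list called lower, 5 in the main fit, numbered 4 to 7 over the 12 alternatives. Serine and glycine transporters called lower, 6 in the main fit, numbered 5 to 6. The pair Aldh1l2 minus Aldh1l1 ranged from -0.013 to 0.19 with 1 array left out, the lowest value being that without no-putrescine replicate 2.

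No pairing of the cultures by replicate number was visible, though 3 arrays per group could not exclude one. Deviations of same-numbered arrays from their group means correlated at 0.0452, -0.101 and -0.0204. Of the 3 arrays without putrescine, 1 correlated best with its own number. With the replicate block 6408 probe sets were called in place of 7240, and 6 of the 10 genes were lower and 2 higher. Dim signal limits what can be said of Aldh1l2, and 3 arrays per group limit every permutation test.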
